A study of Mus musculus with 6 samples.

Results

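The 52 genes described here encode the proteins that license, start and carry out DNA replication and the cyclins, kinases and transcription factors that admit a cell from G1 into S phase. They were chosen by name, with earlier results of these data known, and each was found under its current symbol among the 23235 genes of the deposited table. All 52 had a mean of at least 1 FPKM (fragments mapped to a transcript, scaled to its length and to the library's total) over the 6 libraries and so entered the test, which covered 11532 genes. The genes were split by role into 9 groups. RNA came from sorted long-term haematopoietic stem cells (LT-HSCs) of the bone marrow of C57BL/6 mice aged 2 months, either wild type (WT, 3 libraries) or with a knockout of Hmces (3 libraries). The series' design text speaks of duplicates, whereas the labels and the table give 3 libraries per genotype, and these 3 are the n behind every SD, SE and p below. HMCES is a protein that attaches to abasic sites in single-stranded DNA at replication forks. Each library was made from 1500 sorted cells by Smart-seq2, a method that amplifies full-length cDNA from very little RNA. The labels do not say whether libraries came from separate mice, so p-values reflect the spread among these libraries alone, and that spread could be technical. The sources used here do not give the knockout allele, the sorting gates or the meaning of a tag that all titles share.

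Replication is prepared in G1, when ORC, CDC6 and CDT1 load the MCM2-7 helicase onto origins. In S phase the kinases CDC7-DBF4 and CDK2 turn that ring into the active helicase together with CDC45 and the GINS complex, and polymerases alpha, delta and epsilon copy the strands with the sliding clamp PCNA. Transcription of most of these genes is driven by E2F factors once cyclin D and cyclin E kinases have inactivated the retinoblastoma proteins. LT-HSCs are known for being mostly quiescent, whereas multipotent progenitors cycle actively.

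The libraries were checked before the comparison. Depth was estimated from the steps between low FPKM values, with an assumed fragment length of 200 nt. It was 9800000, 13200000 and 14300000 fragments in WT and 9600000, 11300000 and 9400000 fragments in knockout libraries. Hmces was listed under its older symbol 8430410A17Rik. It was at 39.5, 45.4 and 41.0 FPKM in WT against 8.95, 0.222 and 6.95 FPKM in knockout libraries, without overlap. Its log2 fold change was -3.23 (SE 0.71, unadjusted p = 0.00192, limma adjusted p = 0.289). The test used below therefore did not call the targeted gene itself. On the first principal component the second knockout library scored 67.0 and the other 5 libraries between -33.6 and 10.1. Of 12 stem cell markers 10 passed the minimum level, while Fgd5 and Hoxb5 had means below 1 FPKM and Slamf1, which encodes CD150, lay between 1.39 and 5.08 FPKM. Flt3, Cd34 and Cd48, which mark multipotent progenitors more than LT-HSCs, were abundant, with means over all libraries of 139, 479 and 229 FPKM. Of these Cd48 was at 145, 175 and 219.5 FPKM in WT against 268, 307 and 263 FPKM in knockout libraries, and the groups did not overlap (log2 fold change 0.65, unadjusted p = 0.00387, limma adjusted p = 0.324). The stem cell marker Ly6a, which encodes SCA-1, separated in the same direction (log2 fold change 0.42, unadjusted p = 0.0186, limma adjusted p = 0.488). Granulocyte and monocyte markers moved with genotype. Of 16 measured, 3 were called higher in knockout cells, by limma at an adjusted p under 0.05. Of all genes tested 0.113% were called in either direction. A positive log2 fold change was found for 15 of the 16, whereas 51.9% of all genes tested were negative. The summed level of the 16 was between 6636 and 10423 FPKM in WT and between 18830 and 25235 FPKM in knockout libraries. None of those 16 was at 0 in any library, and the part of these markers, Cd48 and Ly6a in the values below was not tested. Among markers of erythroid cells, megakaryocytes, B cells, T and NK cells and stroma none was called, against that share of 0.113%. The B cell marker Vpreb1 and the T cell marker Cd3d were higher without overlap (log2 fold changes 2.11 and 1.47, limma unadjusted p = 0.00736 and 0.00433). The megakaryocyte marker Pf4 was lower, with overlap (-0.92, limma unadjusted p = 0.0317). Each of these is 1 gene of its list, and the lists did not all move with it. Of the markers tested, 4 of 4 were positive in the B cell list but 2 of 4 in the T and NK cell list (median -0.28). In the megakaryocyte list 2 of 5 were positive (median -0.01). The summed erythroid level was between 79.6 and 128 FPKM in WT and between 33.1 and 250 FPKM in knockout libraries. Fewer cycling cells and less replication RNA per cell cannot be told apart in bulk samples.

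The replication genes were abundant in both genotypes. Most had a slightly lower mean in knockout cells, but no single gene passed the test. Their median level was 66.4 FPKM, against 13.9 FPKM over all genes tested, and the median member ranked above 83.9% of those genes. The level ran from 3.13 FPKM for E2f2 and 3.20 FPKM for Clspn to 345 FPKM for Mcm6 and 354 FPKM for Pcna. Of the 52 genes 38 (73.1%) had a negative log2 fold change, against 51.9% of all genes tested, and the median was -0.14 against -0.01. Without WT replicate 3 there were 34 negative genes and the median was -0.09. On this scale every log2 fold change is knockout minus WT in log2(FPKM + 1). Called by limma at an adjusted p under 0.05 were 0 of 52 genes, where 0.113% of all genes were called, and the smallest adjusted p among the 52 was 0.324. Abundant genes in general leaned the same way: of the 2394 genes with a mean of at least 50 FPKM, 64.5% were negative with a median of -0.08. At that level stood 30 of the 52 genes, of which 26 (86.7%) were negative with a median of -0.17. This level was chosen after the data were seen.

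At an unadjusted p under 0.05 there were 5 genes lower in knockout cells, Pold2, Uhrf1, Mcm5, Chaf1b and Mcm3 (9.62% of the 52, against 4.84% of all genes). Another 2, Pole2 and Prim2, were higher (3.85%, against 4.32% of all genes). Every knockout library lay below every WT library for 7 of the 52 genes (13.5%), namely these 5 with Mcm6 and Rfc4, and 8.34% of all genes did so. The reverse held for 2 of the 52, Pole2 and Prim2, against 7.47% of all genes. On the higher side the share by p was close to the background, and the share by separation was below it. In the main fit both shares on the lower side were above it. Among the genes of at least 50 FPKM the same separation on the lower side held for 7 of the 30 replication genes (23.3%) and for 14.5% of all 2394. An unadjusted p under 0.05 on the lower side was found for 5 of those 30 (16.7%) and for 8.94% of all 2394. The counts depended on single libraries. The lower genes at that p were Gins1, Pold2 and Uhrf1 without WT replicate 1, Mcm5 and Pold2 without WT replicate 3, and Dbf4 and Pold2 without knockout replicate 1. The share of all genes lower at that p was 2.85%, 3.69% and 6.42% in these 3 fits. Without knockout replicate 1 the 2 of 52 (3.85%) were thus below the share of all genes. The count of higher genes was 0 without WT replicate 1 or knockout replicate 2 and 1 without any one of the other libraries. With fewer libraries to separate, the count of 7 became 14 without WT replicate 2 and 13, 17 and 12 without knockout replicates 1, 2 and 3, where the share of all genes was between 11.9% and 15.3%. In the same libraries the 17 markers of mitosis and cycling had 8 negative log2 fold changes and a median of 0.01.

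**Figure D1:**
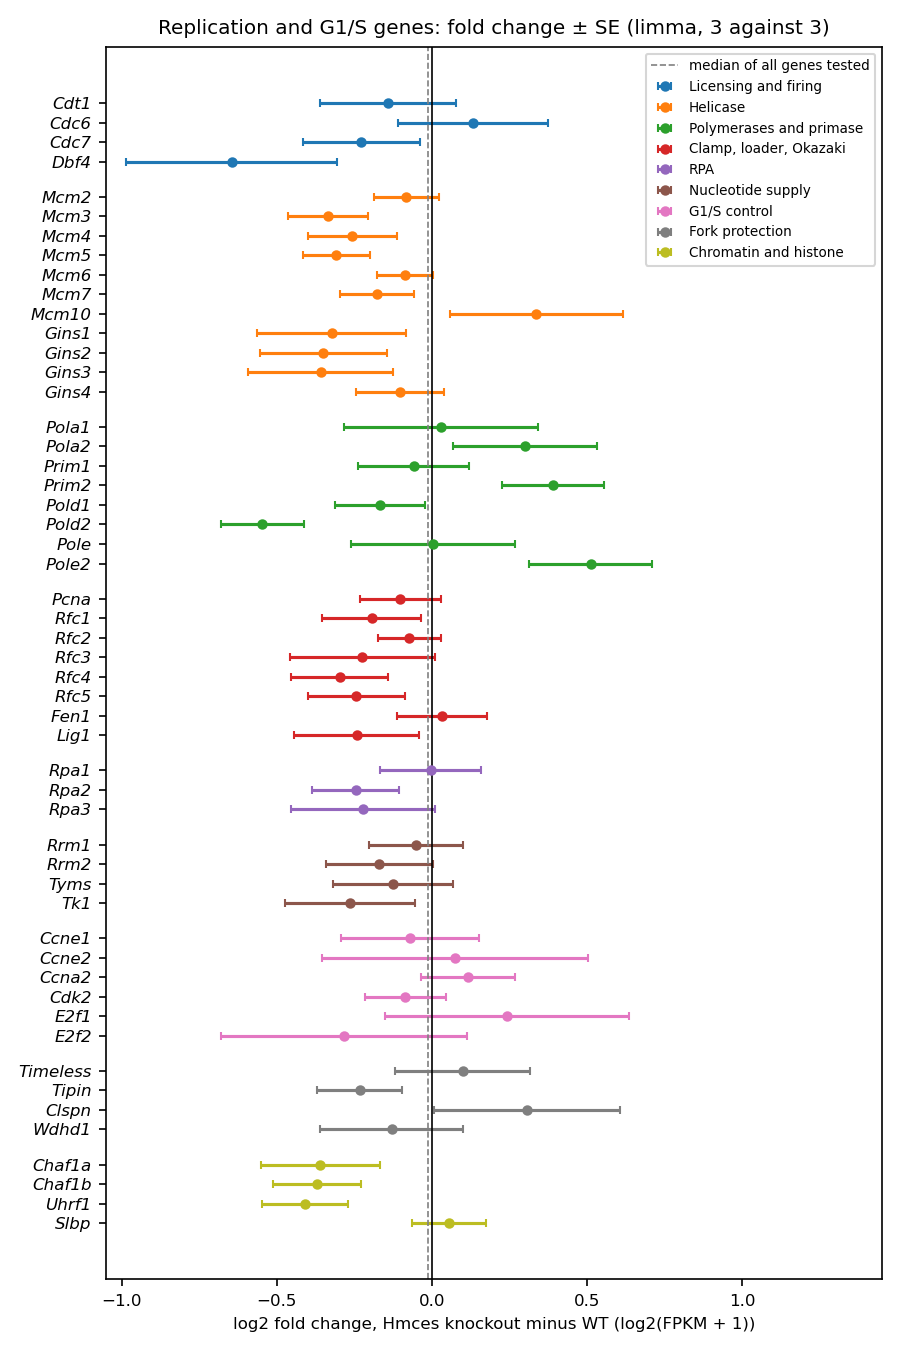
Log2 fold change (x axis, knockout minus WT, in log2(FPKM + 1)) of each of the 52 genes, grouped and coloured by role, as points with the standard error of the limma fit as bars (3 libraries against 3). The dashed line is the median of all genes tested (-0.01), and 38 of the 52 points lie left of 0.

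**Figure D2:**
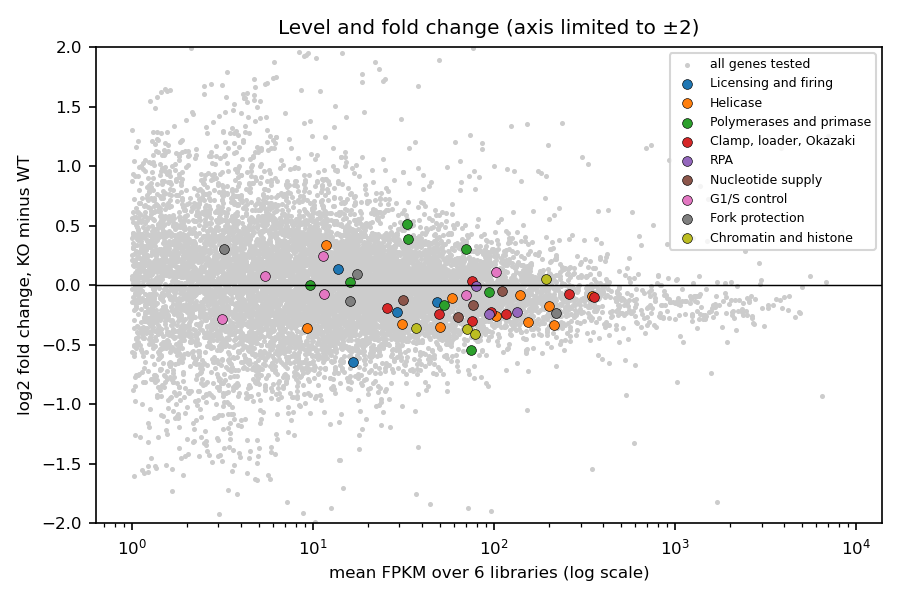
Mean FPKM over the 6 libraries (x axis, log scale) against log2 fold change (y axis, limited to 2 on each side, which leaves out 163 genes) for the 11532 genes tested in grey and the 52 replication genes coloured by role. The 52 genes sit mostly on the right, at a median of 66.4 FPKM, and mostly a little below 0.

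The promoters of 3 of the genes with the smallest p among those lower in knockout cells are shown, because E2F sites at such promoters are the known switch of the S phase genes. Each is the 250 bases upstream of a transcription start from RefSeq (build GRCm38.p6), 5′ to 3′ on the gene's own strand, with E2F-type letters (TTTGGCGC, TTTCCCGC, TTTGCCGC or TTTCGCGC) and CCAAT boxes in capitals, on either strand.
Pold2, chr11:5878257-5878506, minus strand: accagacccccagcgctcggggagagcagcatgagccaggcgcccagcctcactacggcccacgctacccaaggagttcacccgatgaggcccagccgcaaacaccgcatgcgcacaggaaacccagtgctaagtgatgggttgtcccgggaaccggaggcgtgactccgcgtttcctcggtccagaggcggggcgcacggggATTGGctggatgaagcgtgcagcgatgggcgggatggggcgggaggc
Uhrf1, chr17:56304063-56304312, plus strand: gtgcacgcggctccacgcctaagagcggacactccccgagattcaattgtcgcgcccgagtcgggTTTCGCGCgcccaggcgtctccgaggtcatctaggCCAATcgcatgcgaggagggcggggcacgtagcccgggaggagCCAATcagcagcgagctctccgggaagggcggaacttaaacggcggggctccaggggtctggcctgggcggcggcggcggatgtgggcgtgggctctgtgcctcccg
Mcm5, chr8:75109259-75109508, plus strand: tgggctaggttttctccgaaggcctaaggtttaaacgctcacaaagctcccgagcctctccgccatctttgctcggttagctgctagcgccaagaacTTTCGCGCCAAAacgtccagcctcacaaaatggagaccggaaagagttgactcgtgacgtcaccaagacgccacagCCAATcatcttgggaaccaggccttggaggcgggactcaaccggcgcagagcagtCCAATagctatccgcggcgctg
Mcm5 holds 2 E2F-type matches on opposite strands that overlap each other, and 2 CCAAT boxes. Uhrf1 holds 1 E2F-type match and 2 CCAAT boxes in this window, and Pold2 holds 1 CCAAT box, read on the other strand as ATTGG. Chaf1b held neither motif in its window. Pold2 and Uhrf1 each have a second listed start, and the window with more matches is shown.

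A promoter entry was found for 42 of the 52 genes, all but Mcm4, Gins1, Gins2, Gins4, Prim2, Pole, Rfc2, Ccne2, Ccna2 and Tipin. An E2F-type match was present in 9 of the 42 (21.4%), against 2.16% of all 27025 genes with an entry and 4.09% of the 8119 that were also tested. The 9 were Cdc6, Cdk2, Gins3, Mcm5, Mcm6, Mcm7, Pola1, Rfc3 and Uhrf1. A CCAAT box was present in 24 of the 42 (57.1%), against 37.5% of all genes with an entry and 41.3% of those tested. The letters TTTGAA, the core of the element that times genes to G2 and mitosis, were present in 6 of the 42 (14.3%), against 18.3% and 12.8%. Of the genes with an E2F-type match 7 of 9 were negative in log2 fold change (median -0.18), and of those without one 25 of 33 (median -0.14). A match says only that these letters stand in the window.

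Licensing and firing genes were at moderate levels and varied between knockout libraries. Cdt1, whose product loads the MCM ring and is destroyed in S phase, was at 43.8, 48.5 and 57.7 FPKM in WT against 43.3, 60.6 and 34.6 FPKM in knockout libraries. The groups overlapped, with knockout replicate 2 the highest of all 6 libraries and replicate 3 the lowest. Cdc6, the loading ATPase, was the lowest of the group, at 10.8, 12.3 and 16.2 FPKM in WT against 15.1, 11.2 and 17.2 FPKM in knockout libraries, again with overlap. Cdc7, the kinase that fires origins, was at 29.7, 33.5 and 30.1 FPKM in WT against 21.6, 32.8 and 25.8 FPKM in knockout libraries. Replicates 1 and 3 of the knockout lay below all WT libraries for Cdc7 while replicate 2 lay among them. Its activating subunit Dbf4 was at 18.5, 19.1 and 21.5 FPKM in WT against 21.7, 7.67 and 10.8 FPKM in knockout libraries. Knockout replicate 1 was level with the highest WT library for Dbf4 and replicates 2 and 3 were the lowest, so the log2 fold change of -0.65 (SE 0.34, limma adjusted p = 0.607) rests on those 2 libraries.

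The replicative helicase was the biggest of the 9 groups, and 10 of its 11 genes were negative in log2 fold change (median -0.26). Without WT replicate 3 the same count of 10 held and the median was -0.15. All 6 subunits of the MCM2-7 ring had a negative log2 fold change, between -0.33 and -0.08, which also held after quantile normalization and after scaling to a common median. The ring subunits are assembled in equal number, but their RNA levels per length were not equal: Mcm6 had the highest mean at 345 FPKM, followed by Mcm3 (215), Mcm7 (201), Mcm5 (154), Mcm2 (139) and Mcm4 (102). Within every library Mcm6 stood above and Mcm4 below all the others, and Mcm7 stood above Mcm5. Mcm3 lay above Mcm7 and Mcm5 above Mcm2 in all libraries but 1, knockout replicate 3 for the first pair and knockout replicate 1 for the second.

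Mcm5 was at 174, 162 and 174 FPKM in WT against 128, 137 and 147 FPKM in knockout libraries. The groups did not overlap, and the log2 fold change was -0.31 (SE 0.11, unadjusted p = 0.0215, limma adjusted p = 0.490). For Mcm3 the WT libraries were nearly equal at 238, 241 and 238 FPKM and the knockout libraries read 173, 226 and 173 FPKM. Replicates 1 and 3 of the knockout were clearly lower and replicate 2 came close to the WT values (log2 fold change -0.33, SE 0.13, adjusted p = 0.515). Mcm6 was at 371, 348 and 348 FPKM in WT against 345, 329.8 and 329 FPKM in knockout libraries, so that the groups separated but by a difference of only -0.09 (SE 0.09, adjusted p = 0.789). Mcm2 was also tightly read, at 143 ± 9.15 FPKM in WT against 135 ± 2.00 FPKM in the knockout (mean ± SD, n = 3 for each).

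The GINS complex, which joins MCM2-7 and CDC45 in the moving helicase, had 4 of 4 genes negative, between -0.36 and -0.10, under the same scalings too. Gins3 was the lowest of the helicase group, at 10.2, 9.18 and 11.9 FPKM in WT against 8.0, 6.57 and 9.27 FPKM in knockout libraries. Knockout replicate 3 lay inside the WT range, so the groups overlapped (adjusted p = 0.684). Gins1 and Gins2 had means of 34.9 ± 8.97 and 56.0 ± 6.64 FPKM in WT against 27.3 ± 5.47 and 44.5 ± 11.5 FPKM in knockout cells. Mcm10, which helps switch the helicase on, was the exception of the group with a log2 fold change of 0.34. Its values were 9.21, 11.3 and 9.80 FPKM in WT against 9.92, 19.4 and 11.2 FPKM in knockout libraries, and the difference came from knockout replicate 2.

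**Figure D3:**
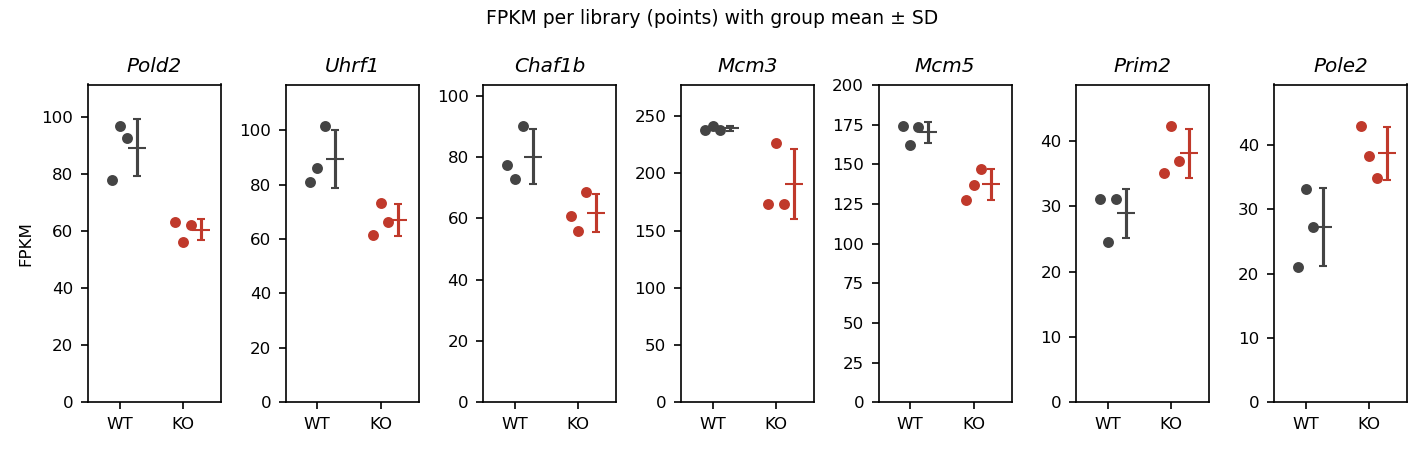
FPKM per library (y axis from 0, 1 point each) in WT and Hmces knockout (KO) cells for the 7 genes with an unadjusted p under 0.05, with the group mean and SD beside the points. For Pold2, Uhrf1, Chaf1b, Mcm3 and Mcm5 every knockout point lies below every WT point, and for Prim2 and Pole2 above.

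The polymerase genes had values on both sides, and the 3 smallest p-values of the group belonged to subunits that do not carry the copying active site. Pold2, the second subunit of polymerase delta, was at 77.9, 96.7 and 92.7 FPKM in WT against 63.2, 56.2 and 62.1 FPKM in knockout libraries. All knockout libraries lay below all WT libraries, the knockout mean was 0.679 of the WT mean, and the log2 fold change of -0.55 (SE 0.13) had the smallest p of the 52 genes (unadjusted p = 0.00367, limma adjusted p = 0.324). Pold2 was the 1 gene of the 52 with an unadjusted p under 0.05 in all 16 alternative fits, where its log2 fold change lay between -0.64 and -0.49 and its adjusted p between 0.223 and 0.768. Pold1, the catalytic subunit of the same enzyme, was at 59.1, 51.5 and 57.9 FPKM in WT against 47.6, 57.2 and 45.1 FPKM in knockout libraries, and its groups overlapped through knockout replicate 2.

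Pole2, the second subunit of the leading strand polymerase epsilon, was at 21.1, 33.2 and 27.3 FPKM in WT against 42.9, 38.2 and 34.8 FPKM in knockout libraries. Every knockout library was above every WT library, with a log2 fold change of 0.51 (SE 0.20, unadjusted p = 0.0324, limma adjusted p = 0.515). The catalytic subunit gene Pole was the lowest of the group, at 9.42, 7.94 and 11.4 FPKM in WT against 7.13, 12.2 and 9.87 FPKM in knockout libraries, with a log2 fold change of 0.00 that took either sign in the alternative fits. Whether the fold changes of Pole2 and Pold2 differ was not tested.

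Prim2, the large subunit of the primase that starts each new strand, was at 31.1, 24.6 and 31.1 FPKM in WT against 35.1, 42.3 and 36.9 FPKM in knockout libraries. Here too the groups separated, with the knockout libraries higher (log2 fold change 0.39, SE 0.16, adjusted p = 0.538). Its catalytic partner Prim1 had the highest level of the group, at 88.3, 89.8 and 109 FPKM in WT against 110.4, 95.8 and 72.1 FPKM in knockout libraries, which ran from below to above the WT values. The polymerase alpha genes Pola1 and Pola2 had means of 16.0 ± 6.12 and 63.1 ± 17.6 FPKM in WT against 16.0 ± 4.44 and 76.3 ± 11.8 FPKM in the knockout (mean ± SD, n = 3 for each), also overlapping. Over the 8 genes 3 were negative and 5 positive, and the median was 0.02. With quantile normalization or libraries scaled to a common median 4 were negative. With 1 library left out the median lay between -0.13, without knockout replicate 2, and 0.20, without knockout replicate 1.

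Of the clamp, clamp loader and Okazaki fragment genes 7 of 8 were negative, with a median of -0.21 that was -0.11 without knockout replicate 2. Pcna, the sliding clamp, with the highest mean of all 52 genes, was at 358, 319.7 and 426 FPKM in WT against 371, 318 and 333 FPKM in knockout libraries. These overlapped, and WT replicate 3 alone was high. The loader subunits Rfc1 to Rfc5 were all negative, between -0.30 and -0.07, and 4 of the 5 were so without knockout replicate 2. Rfc4 was at 80.3, 88.4 and 78.7 FPKM in WT against 71.4, 54.5 and 76.6 FPKM in knockout libraries, with no overlap but a wide spread among knockout libraries (log2 fold change -0.30, SE 0.16, adjusted p = 0.607). Rfc5 was at 125, 132 and 120.1 FPKM in WT against 122, 115 and 84.7 FPKM in knockout libraries, where replicate 3 alone was far below the rest. Rfc1, the large subunit, was the lowest of the group at 30.5, 24.4 and 27.7 FPKM in WT against 22.9, 23.9 and 24.7 FPKM in knockout libraries, and overlapped through WT replicate 2. Fen1, the flap nuclease, and Lig1, the ligase that seals the fragments, had means of 75.0 ± 8.43 and 53.6 ± 4.51 FPKM in WT against 76.8 ± 9.19 and 46.1 ± 12.5 FPKM in knockout cells.

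RPA coats single-stranded DNA, the form of DNA on which HMCES acts. Rpa1, the large subunit, was at 71.0, 76.7 and 89.9 FPKM in WT against 65.3, 90.5 and 82.2 FPKM in knockout libraries, with means that differed by less than the spread within either group. Rpa2 was at 102, 93.8 and 110.4 FPKM in WT against 89.9, 95.6 and 73.5 FPKM in knockout libraries, and knockout replicate 2 lay inside the WT range (adjusted p = 0.640). Rpa3 was the highest of the trio, at 116, 135 and 181 FPKM in WT against 158, 91.1 and 123 FPKM in knockout libraries. It varied more within each genotype than between them. The median over the 3 genes was -0.22, -0.05 without WT replicate 3 and -0.10 without knockout replicate 2. With quantile normalization 2 of the 3 were negative.

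The nucleotide supply genes had 4 of 4 negative log2 fold changes, between -0.27 and -0.05, none with an unadjusted p under 0.05. Without WT replicate 3, knockout replicate 1 or knockout replicate 2 it was 3 of 4. Rrm1 and Rrm2, the subunits of ribonucleotide reductase, were at 103, 107 and 125 FPKM and 77.6, 67.0 and 99.0 FPKM in WT libraries. In knockout libraries they were at 96.1, 99.4 and 129 FPKM and 63.6, 78.8 and 71.9 FPKM, inside or just outside the WT ranges. Tyms, which makes thymidylate, was the lowest of the group, at 34.0, 26.3 and 38.7 FPKM in WT against 25.9, 29.8 and 34.3 FPKM in knockout libraries. Tk1, the thymidine salvage kinase that follows S phase closely, was at 70.3, 61.0 and 73.4 FPKM in WT against 49.8, 78.2 and 46.2 FPKM in knockout libraries. Knockout replicates 1 and 3 lay well below the WT range for Tk1 and replicate 2 lay above it, so the log2 fold change of -0.27 (SE 0.21, adjusted p = 0.719) joins unlike libraries.

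The G1/S control genes had 3 negative and 3 positive log2 fold changes and a median of 0.00, which lay between -0.11 and 0.07 with 1 library left out. Ccna2, the cyclin of S phase and G2, was the highest of the group, at 102, 97.0 and 94.3 FPKM in WT against 97.2, 131 and 93.1 FPKM in knockout libraries, where replicate 2 alone was high. E2f2, an activating E2F, had the lowest mean of the 52 genes, at 5.37, 2.78 and 2.44 FPKM in WT against 1.59, 4.20 and 2.41 FPKM in knockout libraries. E2f1 and Ccne2 were also low and scattered, with means of 10.01 ± 3.06 and 4.97 ± 1.16 FPKM in WT against 12.8 ± 6.81 and 5.83 ± 3.34 FPKM in knockout cells, and their standard errors on the log2 scale were 0.39 and 0.43. Ccne1 and Cdk2, the cyclin E and kinase pair of S phase entry, had means of 11.7 ± 0.736 and 71.8 ± 4.72 FPKM in WT against 11.2 ± 2.38 and 67.7 ± 6.53 FPKM in knockout cells. All 6 genes overlapped between genotypes.

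Fork protection genes were divided as well. Tipin, which with Timeless couples the helicase to the polymerases, was far more abundant than its partner, at 206, 237 and 269 FPKM in WT against 226, 183 and 196 FPKM in knockout libraries. Timeless had a mean of 16.8 ± 2.83 FPKM in WT against 18.1 ± 3.31 FPKM in knockout cells. The Tipin groups overlapped through knockout replicate 1 (log2 fold change -0.23, SE 0.14, adjusted p = 0.646). Clspn, the claspin gene of the checkpoint at stalled forks, was low, at 2.47, 3.49 and 2.32 FPKM in WT against 3.33, 4.47 and 3.14 FPKM in knockout libraries. Its groups overlapped through WT replicate 2. Wdhd1, which ties the helicase to polymerase alpha, had means of 16.8 ± 3.29 FPKM in WT against 15.3 ± 2.99 FPKM in knockout cells.

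Chromatin genes that act just behind the fork gave the lowest median of the 9 groups, -0.37 over 4 genes, with 3 negative. Uhrf1, which reads hemimethylated DNA after the fork and brings in the maintenance methyltransferase, was at 80.8, 86.0 and 102 FPKM in WT against 61.5, 73.3 and 66.3 FPKM in knockout libraries. All knockout libraries lay below all WT libraries (log2 fold change -0.41, SE 0.14, unadjusted p = 0.0190, limma adjusted p = 0.488). Chaf1b, a subunit of the CAF-1 complex that lays down new histones, was at 77.4, 72.9 and 90.1 FPKM in WT against 60.6, 56.0 and 68.5 FPKM in knockout libraries. It separated in the same way (log2 fold change -0.37, SE 0.14, adjusted p = 0.512). Its partner Chaf1a was at 40.7, 42.2 and 40.5 FPKM in WT against 26.2, 29.4 and 41.7 FPKM in knockout libraries, and knockout replicate 3 lay inside the WT range while replicates 1 and 2 were low. Slbp, which binds histone mRNA and is made for S phase, was at 192, 170.3 and 210.2 FPKM in WT against 201, 208 and 184 FPKM in knockout libraries. The groups overlapped, with a log2 fold change of 0.05 (SE 0.12).

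**Figure D4:**
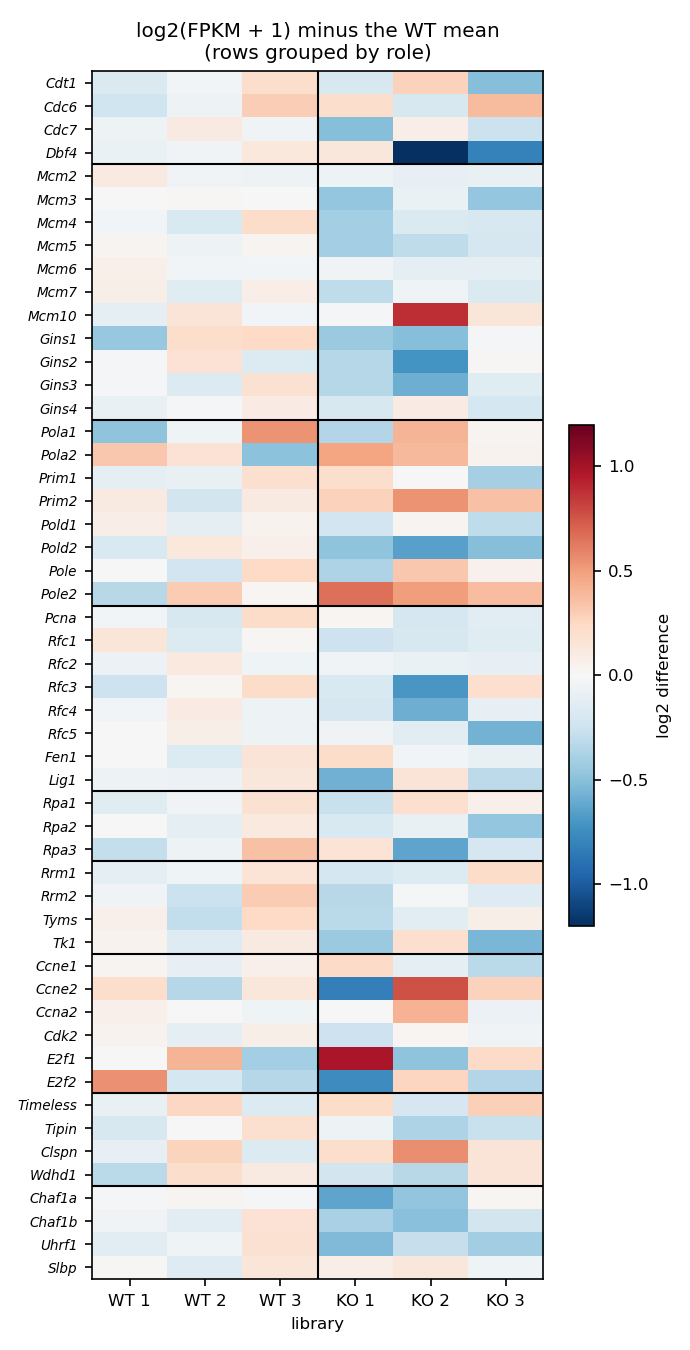
Difference of each library from the WT mean in log2(FPKM + 1) (colour, limited to 1.2 on each side, a limit that 1 gene passes) for the 52 genes (rows, grouped by role in the order of the text) in the 3 WT and 3 knockout (KO) libraries (columns). The helicase and chromatin rows are mostly blue in the knockout columns, while the polymerase and G1/S rows hold both colours.

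Summed over all 52 genes, the level was 4372, 4351 and 4779 FPKM in WT and 4098, 4129 and 4010 FPKM in knockout libraries. Every knockout library lay below every WT library, and the knockout mean was 90.6% of the WT mean. The helicase sum was 83.8%, 90.9% and 87.7% of the WT mean in knockout replicates 1 to 3, against 101%, 97.0% and 102% in the WT libraries. The G1/S control sum was 97.9%, 117% and 96.3%, and the polymerase sum 104.6%, 104.5% and 88.0%, neither of which separated the genotypes. The sum of the 17 cycling and mitosis markers was on average 97.8% of the WT mean, and that of the 16 granulocyte and monocyte markers 253% of it. These sums are dominated by their most abundant members and were given no test.

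**Figure D5:**
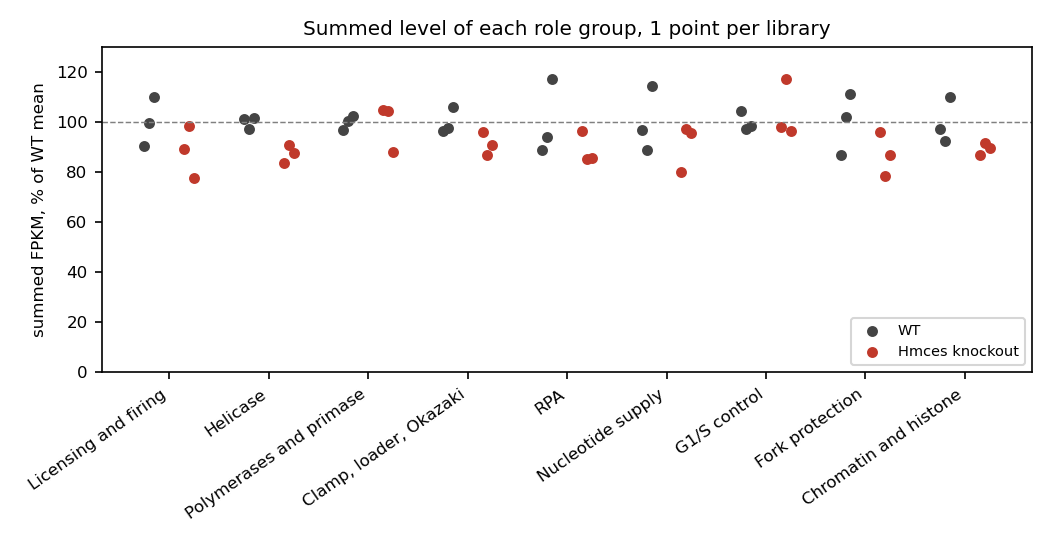
Summed FPKM of each role group in each library as a percentage of the WT mean of that group (y axis from 0), with WT libraries in grey and knockout libraries in red. The knockout points lie below all WT points for the helicase, at 83.8% to 90.9%, for the chromatin and histone group and, narrowly, for the clamp and loader group, and overlap the WT points for the other 6 groups.

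Of 69 other genes of the same machinery, listed by role, 68 were measured. By limma 0 of 68 were called, and at an unadjusted p under 0.05 there were 6 lower (8.82%, against 4.84% of all genes) and 1 higher (1.47%, against 4.32%). Of the 68, 53 (77.9%, against 51.9% of all genes) were negative in log2 fold change, and at a mean of at least 50 FPKM 20 of 22 (90.9%, against 64.5%) were. The median over the 68 was -0.21, and -0.13 and -0.12 without knockout replicates 2 and 3. In the list of other nucleotide synthesis genes 13 of 14 were negative with a median of -0.29. Impdh2, which commits purines to guanine nucleotides, was at 311, 343 and 344 FPKM in WT against 279, 261 and 260.1 FPKM in knockout libraries. Ctps, which makes CTP, was at 57.2, 36.9 and 39.1 FPKM in WT against 21.9, 33.7 and 23.9 FPKM in knockout libraries. Neither gene overlapped between genotypes (limma adjusted p = 0.453 and 0.482). Dut, Cad and Gart were the other 3 genes of this list that separated on the lower side, and are named after their values were seen. In all, 5 of the 14 did so (35.7%), against 8.34% of all genes tested. Among all genes of at least 50 FPKM the share was 14.5%.

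Among the other polymerase and fork genes 14 of 15 were negative, with a median of -0.14. Without WT replicate 3 there were 10 of 15 negative, and without knockout replicate 3 the median was -0.08. Rnaseh2b, a subunit of the nuclease that removes ribonucleotides from DNA, was at 62.9, 62.3 and 70.5 FPKM in WT against 41.2, 43.6 and 44.4 FPKM in knockout libraries (log2 fold change -0.59, SE 0.13, limma adjusted p = 0.289). The groups stood well apart, although the subunit genes Rnaseh2a and Rnaseh2c overlapped. Chtf18, of an alternative clamp loader, was at 13.7, 14.5 and 15.3 FPKM in WT against 8.76, 10.8 and 9.19 FPKM in knockout libraries, also without overlap (adjusted p = 0.495).

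Of the other origin genes 6 of 13 were negative, with a median of 0.06 that lay between 0.02 and 0.07 with 1 library left out. Orc5, a subunit of the origin recognition complex, had the smallest p of the 68 genes, and on the higher side. It was at 11.9, 15.2 and 13.5 FPKM in WT against 22.9, 25 and 27.1 FPKM in knockout libraries, 1.85 times the WT mean, with no overlap (log2 fold change 0.84, SE 0.18, unadjusted p = 0.00170, limma adjusted p = 0.289). In the other G1/S list 11 of 15 genes were negative with a median of -0.26, which was -0.07 without knockout replicate 2 and -0.15 without knockout replicate 3. In the other chromatin list 9 of 11 were negative, with a median of -0.12.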

How the data were processed

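The authors deposited 1 table of FPKM values for 6 Smart-seq2 libraries, with no counts. TopHat2 2.1.1, Cufflinks 2.2.1 and the mm9 build are named in the submitters' processing notes. Here log2(FPKM + 1) was tested for the 11532 genes with a mean of at least 1 FPKM with limma 3.58.1 in R 4.3.3 (moderated test with a mean-variance trend, two-sided), on the 3 WT and 3 knockout libraries with no covariate. p-values were adjusted over all genes tested by Benjamini-Hochberg, and an adjusted p under 0.05 was called. A fold change on this scale understates that of low genes. For a single gene, an exact permutation test of 3 against 3 cannot go below 0.1. Members and lists were chosen with earlier results of these data known. Genes named with the value in every library were, in each role group, the 2 with the smallest p and the highest and lowest means, and every gene with an unadjusted p under 0.05. From the other machinery the genes with the 5 smallest p were named. Genes given by mean beside these, and Pold1 and Mcm10, were added after their values were seen. Alternatives changed the pseudocount, filter, scaling, variance model, small RNA genes, replicate block and each library in turn. The labels do not say whether replicate numbers pair the libraries, and the main fit used no pairing. Promoters were searched on both strands.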

Additional observations from a re-analysis of the deposited data

How the results depend on the processing

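By limma 0 of the 52 genes and 0 of the 68 others were called in any of the 16 alternatives, and the smallest adjusted p of the 52 over them was 0.223. The median log2 fold change of the 52 lay between -0.19 and -0.09 and the count of negative genes between 34 and 42. Among all genes 13 were called, against 1 with no filter, 6 without the trend, 20 with robust moderation, 32 without small RNA genes and 2 to 19 with 1 library left out. At an unadjusted p under 0.05 the count of lower genes was 5, against 3 with quantile normalization, 1 without the trend and 2 to 7 with 1 library left out. The share of all genes lower at that p was 4.84%, against 4.45%, 3.97% and 2.6% to 6.42% in the same order. Without the trend and without knockout replicate 1 the share of the 52 was below that of all genes. The count of higher genes was 2, against 1 with scaling to a common median, robust moderation or no small RNA genes, 0 without the trend and 0 to 1 with 1 library left out. The count of genes with every knockout library below every WT library was 7, where 8.34% of all genes did so. It was 5 with quantile normalization (against 7.58% of all genes) and 8 with scaling to a common median (against 8.92%). With 1 library left out, where fewer libraries had to separate, it was 9 to 17, and the share of all genes was 11.9% to 15.3%. Leaving out 1 library gave medians of -0.21 to -0.11 for the clamp and loader group and -0.28 to -0.046 for RPA.

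With the replicate block 2 of all genes were called, and 3 of the 52 were lower and 0 higher at an unadjusted p under 0.05. The shares of all genes at that p were then 3.63% lower and 3.62% higher. Deviations from the group mean correlated at 0.08, 0.01 and 0.04 between same-numbered libraries and between -0.08 and 0.05 for other pairs. WT replicates 1 and 2 correlated best with their own number and WT replicate 3 with knockout replicate 2, at 0.05. These values do not settle whether replicate numbers pair the libraries. Directions of small differences turned with 1 library left out: Cdt1 (-0.35 to 0.043), Prim1 (-0.19 to 0.11), Pole (-0.16 to 0.19), Pcna (-0.20 to 0.0075), Rpa1 (-0.10 to 0.13), Rrm1 (-0.19 to 0.032), Ccna2 (-0.036 to 0.21) and Slbp (-0.025 to 0.13). With quantile normalization Pole was -0.014 and Rpa1 0.040, and with scaling to a common median Pole was -0.018. The cause of these changes was not tested. With 3 libraries a group and 9400000 to 14300000 fragments each, differences of the size seen here were mostly within the spread between libraries.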

Other observations

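Which of the knockout libraries were low differed between the replication genes. For 10 of the 52 (19.2%, against 6.26% of all genes tested) knockout replicates 1 and 3 were both below all WT libraries while replicate 2 was not. These were Cdt1, Cdc7, Mcm4, Mcm7, Gins4, Pold1, Lig1, Rpa2, Tk1 and E2f2. Replicate 1 was the exception in this sense for 6 genes (11.5%, against 6.95%), Dbf4, Mcm2, Rfc2, Rfc5, Ccne1 and Tipin. Replicate 3 was the exception for 5 (9.62%, against 5.29%), Gins2, Gins3, Rfc1, Rrm1 and Chaf1a. The lowest of all 6 libraries was a knockout library for 43 of the 52 genes (82.7%), against 57.4% of all genes tested. The shares of all genes here were not matched for level, and abundant genes in general leaned lower (64.5% negative at a mean of at least 50 FPKM). These patterns were noticed after the values were seen and have no test.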
